A study of Mus musculus with 23 samples.

Results

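The parathyroid genes described here are *Gcm2*, *Pth*, *Chga*, *Casr* and *Gata3*, 5 of the 50123 genes counted in RNA-seq libraries of sorted fetal mouse thymic epithelial cells (TECs). They were chosen by their normalized expression and detection across the 7 groups, parathyroid markers having been seen to be lower in the NICD libraries, so every difference between NICD and the other libraries is given as a description only. All 5 passed the filter on low counts, which left 19140 genes for testing. Each of the 23 libraries was made from 100 cells sorted from dissected thymi of C57BL/6 embryos, with 3 libraries in each of 6 groups and 5 in the NICD group. The *Rbpj* conditional knockout (cKO) carries Foxn1Cre and RbpjFL/FL, so that RBPJ, the DNA-binding partner of the Notch receptors, is deleted where *Foxn1* is active, that is, in thymic epithelium. Control and cKO libraries were made from E12.5 PLET1+ cells, E14.5 PLET1+ cells and E14.5 PLET1- cells, PLET1 being a surface marker of early TEC progenitors. The controls, labelled wild type, were littermates from a cross in which every embryo inherits at least 1 floxed *Rbpj* allele. NICD embryos carry Foxn1Cre and Rosa26FL-STOP-FL-NICD-IRES-EGFP, which switches on the Notch intracellular domain in the same cells, and only their E14.5 PLET1+ cells were sequenced. All 5 NICD embryos came from 1 litter, were bred and sorted in another laboratory and form a batch of their own, so genotype, litter and laboratory cannot be told apart in any comparison with NICD. The E12.5 libraries came from 2 batches and the E14.5 libraries of the *Rbpj* cross from 2 others, so age and batch cannot be told apart either.

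The parathyroid glands and the thymus arise from a shared endodermal primordium, the third pharyngeal pouch, in which *Gcm2* marks the parathyroid domain and *Foxn1* the thymus domain before the organs separate. GCM2 is the transcription factor that parathyroid cells need in order to form and survive, and GATA3 acts with it in the pouch and is also known from T cells. Differentiated parathyroid cells secrete parathyroid hormone, encoded by *Pth*, from granules that hold chromogranin A, encoded by *Chga*, and sense blood calcium through the receptor encoded by *Casr*. Some cells of a parathyroid kind are known to stay in or near the thymus after separation, and a sort of epithelial cells from a dissected thymus can include them.

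On GRCm38, *Gcm2* (ENSMUSG00000021362.6) lies on chromosome 13 from 41101427 to 41109988 on the minus strand. *Pth* (ENSMUSG00000059077.6) is on chromosome 7 from 113385580 to 113388570, minus strand. *Chga* (ENSMUSG00000021194.5) occupies chromosome 12 from 102554969 to 102565027 on the plus strand. *Casr* (ENSMUSG00000051980.13) is on chromosome 16 from 36493696 to 36562141, minus strand, and *Gata3* (ENSMUSG00000015619.10) on chromosome 2 from 9857078 to 9890034, minus strand. Annotated noncoding genes overlap *Gata3* on both strands. Reads were counted without regard to strand, so reads from the overlaps cannot be told apart by strand. *Pth* and *Chga* had the most alike patterns across libraries of any pair among the 5 genes. The 250 bases before their RefSeq starts (GRCm38.p6) are shown, 5′ to 3′ on the strand of the gene. The letters of the motif found in each are in capitals.
Pth, chr7:113388574-113388823, minus strand: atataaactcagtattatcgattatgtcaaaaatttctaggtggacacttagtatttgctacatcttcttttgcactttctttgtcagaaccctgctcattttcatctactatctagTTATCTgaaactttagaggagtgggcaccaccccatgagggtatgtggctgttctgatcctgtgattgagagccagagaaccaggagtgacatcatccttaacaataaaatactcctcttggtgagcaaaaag
Chga, chr12:102554691-102554940, plus strand: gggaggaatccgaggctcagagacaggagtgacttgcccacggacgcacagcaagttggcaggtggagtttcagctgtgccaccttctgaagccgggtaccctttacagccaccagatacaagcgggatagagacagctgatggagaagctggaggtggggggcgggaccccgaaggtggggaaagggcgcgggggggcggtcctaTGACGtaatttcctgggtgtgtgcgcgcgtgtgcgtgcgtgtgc
The capitals in the *Pth* window are TTATCT, the reverse complement of AGATAA, which GATA factors recognise, and their first letter is at -133 from the start. Those in the *Chga* window are TGACG, the core of the cAMP response element, at -44. Searched on both strands in windows of the same length, AGATAA was found before 9.99% of 32851 RefSeq starts and, of the 5 genes, before *Pth* and *Gcm2*. TGACG was found before 17.8% of them and, of the 5, before *Chga* alone. TGGGAA, the letters bound by RBPJ, stood before 21.6% and ATGCGGGT, bound by GCM factors, before 0.21% of all starts, and neither was among the letters of any of the 5 windows.

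Counts per library summed to between 20053241 and 92699969. Levels are given as CPM, the counts of a gene after all libraries were scaled to one total by edgeR's TMM method, and CPM per kilobase of exon where genes are compared with each other. Intervals and limits cover counting error only: a count of 0 allows up to 3 counts, worth between 0.0378 and 0.17 CPM depending on the library. The labels were checked on *Rbpj*, whose level was 9.49 to 37.9 CPM in the 9 control libraries and 0.061 to 16.2 CPM in the 9 cKO libraries, so the ranges overlapped. Every library held *Epcam*, at 369 to 946 CPM, and *Foxn1*, at 12.6 to 295 CPM, so the TEC label held by these markers. The cKO and control libraries were compared as separate embryos. In bulk libraries, fewer cells of a type and less RNA per cell cannot be told apart.

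1 library stood apart. The third E12.5 control held the highest level of all 5 genes among the 23 libraries. It was also the highest for *Vdr*, the vitamin D receptor, at 32.6 CPM. *Nkx2-1*, which marks thyroid, was at 14.2 CPM in it and at most at 0.0551 CPM in the other libraries. Both genes were chosen after their values were seen. Its mitochondrial share of counts was above that of all others but the third E12.5 cKO, of the same batch, at 14.6%. Its part in the results was measured by leaving it out.

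*Gcm2*, the regulator, was present throughout E12.5. In replicates 1, 2 and 3 it stood at 62.2, 5.07 and 63.8 CPM in the E12.5 controls and at 17.4, 14.9 and 35.3 CPM in the E12.5 cKO. At E14.5 it was found in some libraries and not in others of the same group. The PLET1+ controls held 0, 8.79 and 0 CPM, the second of them from 484 counts, and the PLET1+ cKO held 0, 0 and 1.16 CPM. In PLET1- cells it was at 15.9, 10.6 and 0.019 CPM in the controls and at 0.021, 4.2 and 3.68 CPM in the cKO. The NICD libraries had 3 counts on the gene in all, in replicate 2. By mean the order was E12.5 control, E12.5 cKO, E14.5 PLET1- control, E14.5 PLET1+ control, E14.5 PLET1- cKO, E14.5 PLET1+ cKO and NICD. The libraries of neighbouring groups in this order overlapped at each step.

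*Pth*, the hormone gene, gave the largest values of the 5 genes. Among the E12.5 controls it reached 1216, 1491 and 8669 CPM in replicates 1, 2 and 3, and in the third it made up 0.81% of all counts and ranked 7 among the genes of that library. The E12.5 cKO libraries held 901, 1483 and 624 CPM. All 6 libraries of this age thus held the gene among their abundant transcripts, at ranks of 7 to 348. In the E14.5 PLET1+ controls the level was 0.182, 376 and 0.213 CPM, the second from 20731 counts and the others from 5 and 9. In the PLET1+ cKO, 9, 6 and 8 counts gave 0.275, 0.147 and 0.19 CPM. PLET1- controls were at 1431, 864 and 1.06 CPM and PLET1- cKO libraries at 0.989, 202 and 276 CPM. Within each of these E14.5 groups other than the PLET1+ cKO, libraries of the same label therefore lay on both sides of a gap from 1.06 to 202 CPM. The NICD libraries held 0, 660, 1, 0 and 2 counts, or 0, 10.1, 0.0138, 0 and 0.0252 CPM. By mean, the groups ran from E12.5 control (3792 ± 4226 CPM, SD, n = 3) and E12.5 cKO (1003 ± 439 CPM, SD, n = 3) through PLET1- control (765 ± 720 CPM), PLET1- cKO (160 ± 142 CPM) and PLET1+ control (126 ± 217 CPM) to NICD and PLET1+ cKO. No step between neighbours in that order was larger than the larger of their SDs.

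*Chga*, the granule gene, followed the same libraries. It was at 112, 70.5 and 291 CPM in the E12.5 controls and at 84.6, 75.7 and 80.7 CPM in the E12.5 cKO. At E14.5 the PLET1+ controls held 0.0364, 11.7 and 0 CPM and the PLET1+ cKO 0, 0.27 and 0 CPM. The library with 11.7 CPM was again the second control. PLET1- controls were at 111, 34 and 0.133 CPM and PLET1- cKO libraries at 0.105, 47.9 and 55.8 CPM. All 5 NICD libraries had 0 counts. Their mean limit of 3 counts per library is 0.0421 CPM. As a description, with the control means taken as exact, *Chga* was by mean at least 3753-fold lower in NICD than in the E12.5 controls. With the third of them left out it was at least 2169-fold lower. Against the E14.5 PLET1+ controls it was at least 92.9-fold lower by mean, but 1 of 3 libraries supplied nearly all the counts. The other controls, at 0.0364 and 0 CPM, lay under the limit of 0.0421 CPM.

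*Casr*, the calcium receptor, was low in nearly every library and followed another order. The E12.5 controls held 9.19, 0.572 and 61.9 CPM, and the E12.5 cKO 1.12, 3.43 and 1.81 CPM. The PLET1+ controls at E14.5 were at 1.89, 3.25 and 3.25 CPM and the PLET1+ cKO at 0.183, 6.8 and 3.58 CPM. PLET1- cells held 0.255, 10.7 and 0.95 CPM in the controls and 0, 0.944 and 2.93 CPM in the cKO. The NICD libraries, at 3.76, 0, 4.4, 0.273 and 1.07 CPM, overlapped with all 6 other groups. Apart from the third E12.5 control, the libraries at E12.5 did not stand above those at E14.5.

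*Gata3* was detected in all 23 libraries. In the E12.5 controls it was at 53, 43.9 and 79.3 CPM, and all 3 E12.5 cKO libraries, at 34.2, 14 and 34.1 CPM, lay under the lowest of them. The E14.5 PLET1+ controls held 4.29, 9.71 and 13.5 CPM and the PLET1+ cKO 17.1, 17.9 and 5.71 CPM. PLET1- controls were at 22.7, 15 and 5.57 CPM and PLET1- cKO libraries at 7.99, 7.11 and 9.78 CPM. The NICD libraries held 14.6, 2.87, 14.6, 10.5 and 14.7 CPM, so 3 of the 5 were above the highest PLET1+ control. The *Gata3* libraries of NICD overlapped with those of each E14.5 group, although the second lay under all 12 E14.5 libraries of the *Rbpj* cross.

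**Figure D1:**
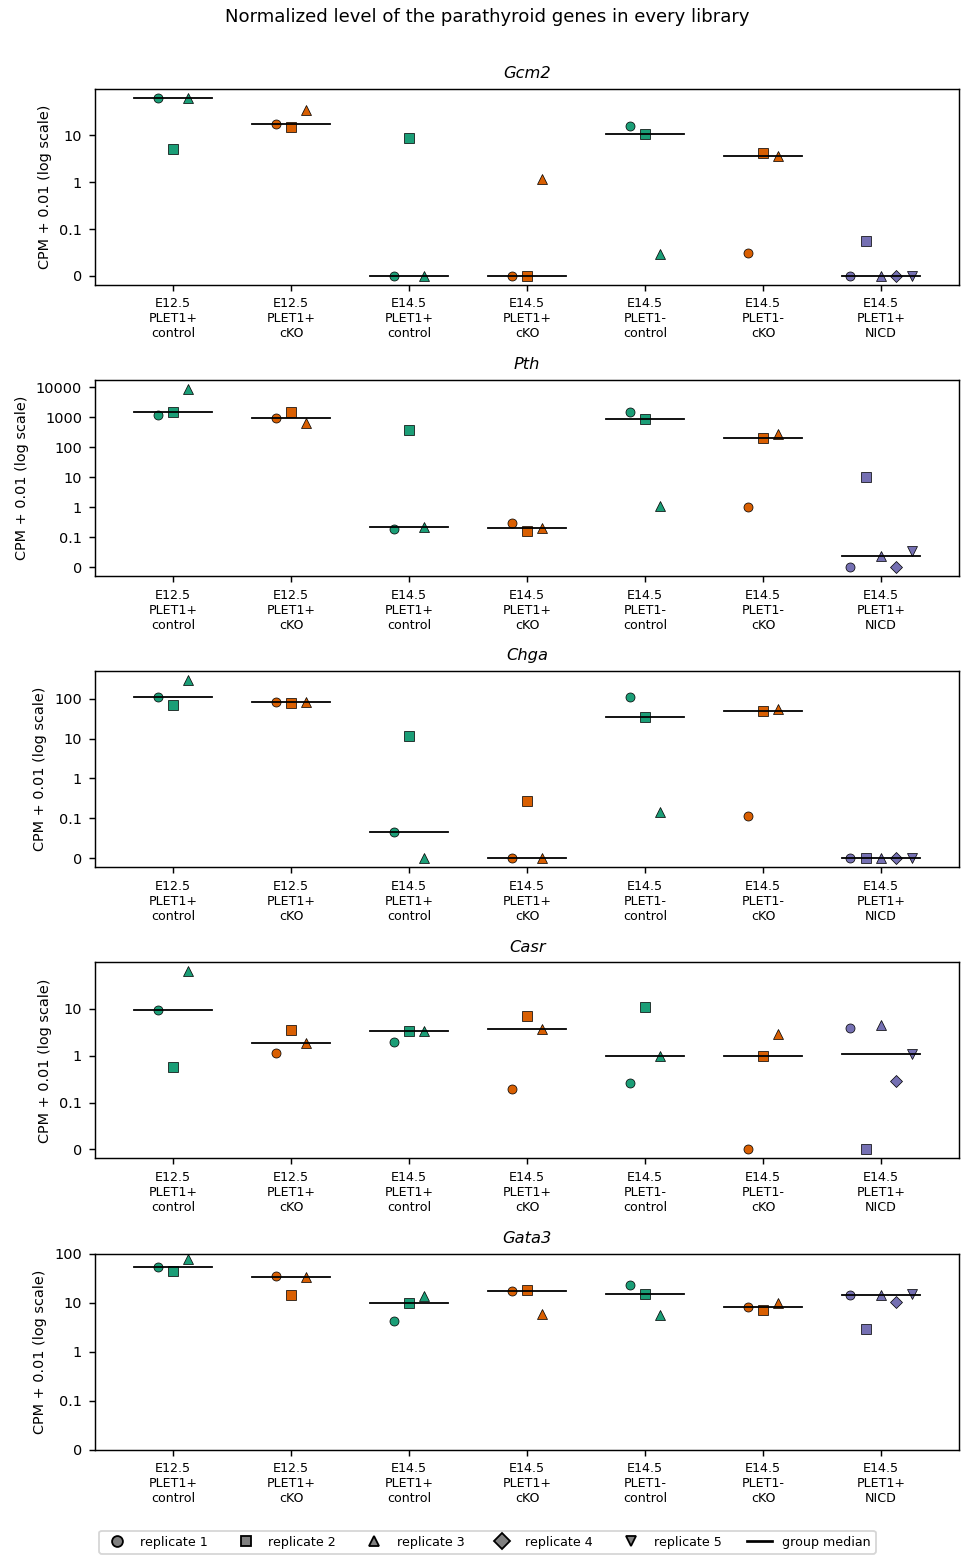
Normalized level of each gene in every library, as CPM + 0.01 on a log scale (0 marks a library with no count), by group, with a bar at the group median and a symbol for each replicate. The 6 E12.5 libraries hold *Gcm2*, *Pth* and *Chga* at 5.07 CPM or more, E14.5 libraries of 1 group lie far apart for these genes, and the *Casr* and *Gata3* ranges of NICD overlap with those of the other E14.5 groups.

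*Gcm2*, *Pth* and *Chga* were found in the same libraries. Taking 1 CPM as detected, all 3 were detected together in 11 libraries, namely 6 of 6 at E12.5, 5 of 12 at E14.5 in the *Rbpj* cross and 0 of 5 in NICD. None of the 3 was detected in 9 libraries, 5 from the E14.5 *Rbpj* cross and 4 from NICD. The other 3 libraries held 1 of the genes each: the third PLET1+ cKO held *Gcm2* at 1.16 CPM, and the third PLET1- control and the second NICD library held *Pth*. In the 12 libraries with *Gcm2*, the median level was 883 CPM for *Pth* and 73.1 CPM for *Chga*, and in the 11 without it *Pth* reached at most 10.1 CPM and *Chga* at most 0.27 CPM. Per kilobase, *Pth* stood 71.6 to 1193 times above *Gcm2* in the 11 libraries with all 3 genes, and 11.2 to 85.4 times above *Chga*.

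**Figure D2:**
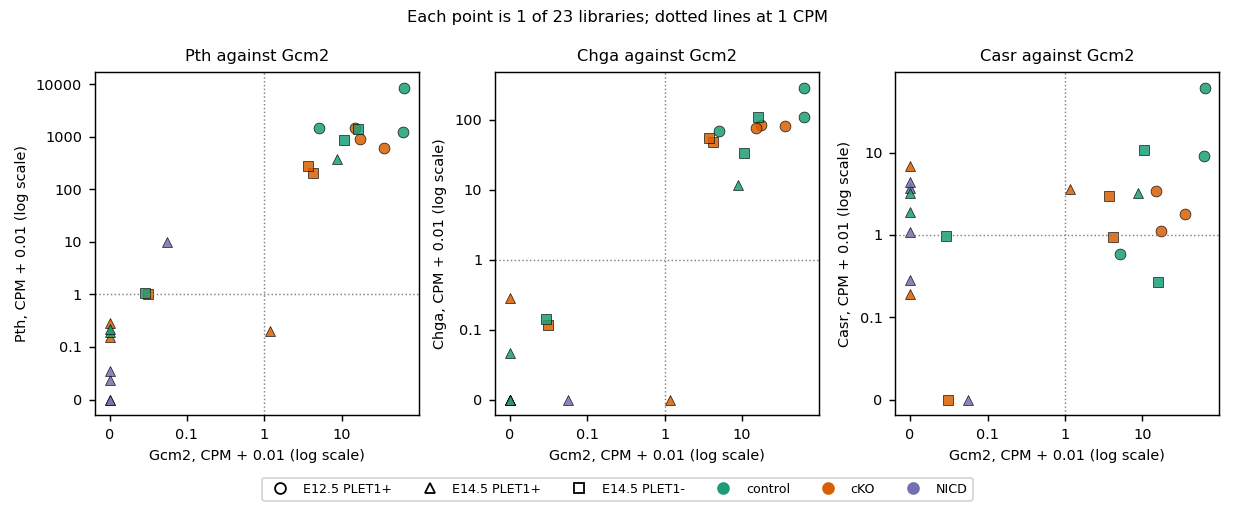
*Pth*, *Chga* and *Casr* against *Gcm2* in the 23 libraries, as CPM + 0.01 on log scales with dotted lines at 1 CPM, with shapes for age and PLET1 and colours for genotype. *Pth* and *Chga* are above 1 CPM in 11 of the 12 libraries with *Gcm2* above 1 CPM, while *Casr* lies above and below 1 CPM whether *Gcm2* was detected or not.

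Likeness of pattern was described by Pearson's r of log2(CPM + 1) over the 23 libraries, which share their batches, ages and library depth, and is given without a test. The libraries include those of NICD, on whose low values the genes were chosen, so likeness among the 5 is not independent of that choice. Of 19139 other genes, the one most like *Pth* was *Chga* (r = 0.976), followed by *Gcm2* (r = 0.932) and *Sparcl1* (r = 0.915). *Gcm2* had *Chga* in first place (r = 0.939), *Pth* in the next and *Sycp2l* after it (r = 0.898). *Casr* stood at place 919 in the list for *Gcm2* (r = 0.472) and *Gata3* at place 77 (r = 0.691). The genes most like *Casr* were *Prr36* (r = 0.801), *Slc4a5* (r = 0.797) and *Gm46999* (r = 0.793). Those most like *Gata3* were *Ece1* (r = 0.847), *Ppargc1a* (r = 0.843) and *Gdpd1* (r = 0.832). With 0.1 in place of 1 added to CPM, the gene in first place was the same for each of the 5, and the third place for *Gcm2*, *Pth* and *Chga* went to *Ibsp* (r = 0.903, 0.904 and 0.906).

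The first comparison asked how PLET1+ cells differed between E12.5 and E14.5. In controls, the libraries of the 2 ages did not overlap for *Pth*, *Chga* and *Gata3*, all lower at E14.5, and the same held for 8.82% of all genes tested. In the cKO they did not overlap for *Gcm2*, *Pth* and *Chga*, against 6.89% of all genes. With controls and cKO together, 6 libraries against 6, *Pth* and *Chga* were lower in every E14.5 library, against 1.82% of all genes. Fitted with edgeR's quasi-likelihood test over all genes, the change from E12.5 to E14.5 controls in *Gata3* was -2.57 on the log2 scale, with a standard error of 0.71 and an adjusted p of 0.11. For *Chga* it was -6.31, with a standard error of 2.51 and an adjusted p of 0.327, and for *Pth* -5.15, with a standard error of 2.93 and an adjusted p of 0.459. None of the 5 genes was called at an adjusted p of 0.05 in controls, where 0.967% of all genes were. Unadjusted, 2 of the 5 were under 0.05, against 12.9% of all genes. DESeq2 called 2 (*Chga* and *Gata3*) among 1281 genes in all, and limma-voom 1 (*Gata3*) among 448. For these 2 genes the call rests on the tool. DESeq2 gave *Pth* no adjusted p in any comparison, so what is said of DESeq2 covers the other 4 genes. Over the whole table edgeR called 185 genes, and 376 with the replicate number as a block. Between the cKO groups the log2 fold change was -12.49 for *Pth* (standard error 3.92, adjusted p = 0.203) and -10.55 for *Chga* (standard error 3.03, adjusted p = 0.179). None of the 5 was called there by edgeR or limma-voom, against 0.784% of all genes by edgeR. Unadjusted, 2 were under 0.05, against 11.3% of all genes, and DESeq2 called *Chga*. Without the third E12.5 control, the change in controls was -3.93 for *Pth*, -5.77 for *Chga*, -2.44 for *Gata3* and, for *Casr*, -0.74 in place of -2.22. Without the second E14.5 PLET1+ control, the one that held *Pth*, it was -13.7 for *Pth*, -12.85 for *Chga* and -14.64 for *Gcm2*, and without the first E12.5 control it was -2.39 for *Gcm2*, in place of -3.68.

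The second comparison asked how these genes differed between the cKO and its controls. In the paper's account, *Rbpj* is deleted from shortly before E12.5, and its function is then lost as the protein turns over and cells divide. Whether *Rbpj* was deleted in the cells that carry the parathyroid genes was not tested, since the Cre acts where *Foxn1* is active. At E12.5 all 5 were lower in the cKO by mean, with a log2 fold change of -1.08 for *Gata3* (standard error 0.67), -0.99 for *Gcm2* (2.22), -1.25 for *Pth* (2.68), -0.73 for *Chga* (1.99) and -2.25 for *Casr* (2.22), each with an adjusted p of 1. *Gata3* was the 1 gene of the 5 whose libraries did not overlap, as in 3.01% of all genes, and the adjusted test called none of the 5 and 0.0261% of all genes. DESeq2 and limma-voom called none of the 5 at this age, and unadjusted none was under 0.05 by edgeR or DESeq2 and 1 by limma-voom. Without the third control the mean of *Pth* fell to 1353 CPM in the controls against 1003 CPM in the cKO, and its log2 fold change was -0.20, a value that leaving out the third cKO library, the other one of the second batch, gave as well. The mean of *Casr* was then 4.88 against 2.12 CPM. In E14.5 PLET1+ cells, *Pth* had a log2 difference of -8.59 (standard error 3.85) with an unadjusted p of 0.039, which became 1 after adjustment. This value came from the second control library, since without it the log2 fold change was -0.05. Without that library *Gcm2* went from -3.31 to 6.75 and *Chga* from -4.97 to 2.0. In E14.5 PLET1- cells the log2 fold change was -1.93 for *Gcm2* (standard error 2.63), -0.80 for *Pth* (3.85) and 2.48 for *Chga* (3.33). The direction for *Pth* turned to 2.54 without the first PLET1- cKO library and to 2.26 without the second. After the filter on low counts, none of the 5 genes was called in either E14.5 population or in the mean over all 3 populations. Of all genes 0% were called in each of these 3, by edgeR, with 395, 447 and 697 genes under 0.05 unadjusted, in this order, and 100, 160 and 202 called by DESeq2 and 0 by limma-voom, but none of the 5 by either. With the replicate block edgeR called 3 genes in the mean over the populations, none of them among the 5. The tests of whether the cKO effect differed between E12.5 and E14.5, or between PLET1+ and PLET1- cells, called none of the 5 genes by edgeR, DESeq2 or limma-voom with this filter. Unadjusted, none was under 0.05 by edgeR or limma-voom, and DESeq2 had 1 under 0.05 in the test by PLET1. By edgeR 0% of all genes were called in either of these tests. The standard errors of *Gcm2*, *Pth*, *Chga* and *Casr* were between 1.9 and 3.85 in the single populations, so changes of less than several log2 units were not detectable at this spread.

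**Figure D3:**
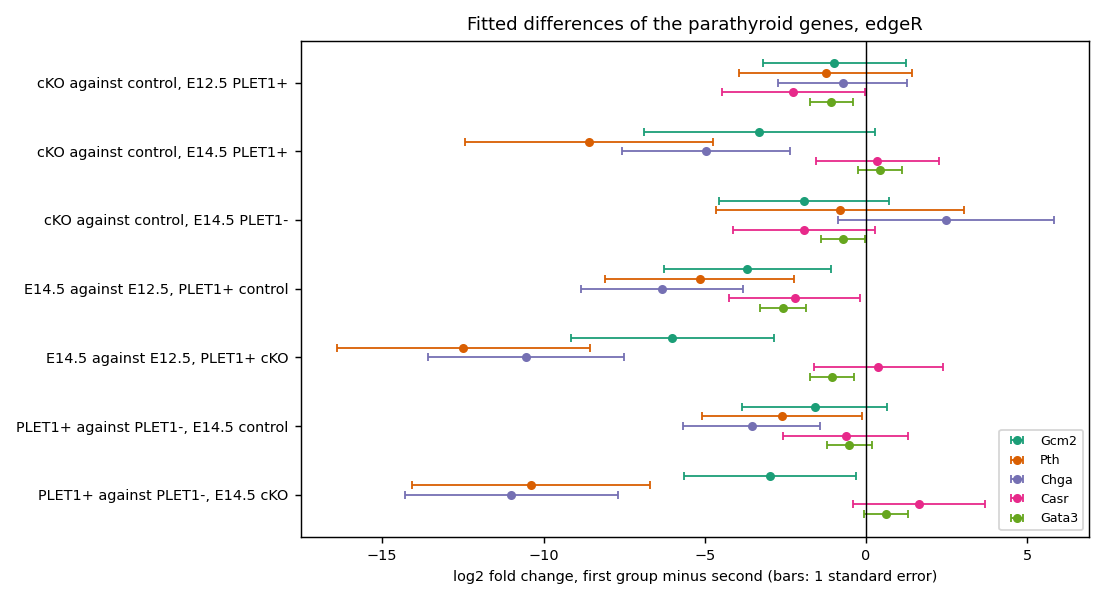
Fitted log2 fold change of each gene (first group minus second, edgeR) in 7 comparisons, with bars of 1 standard error. The bars of *Gata3* are the shortest, those of *Pth* and *Chga* span several log2 units, and no value passed an adjusted p of 0.05 in this fit.

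The third comparison asked whether, at E14.5, the genes were carried by the PLET1+ or the PLET1- cells. In number-matched libraries, *Gcm2*, *Pth* and *Chga* were each higher in the PLET1- library in 6 of 6 pairs. That pattern was chosen after the values were seen, and 3.29% of all genes showed it. For *Gcm2*, control pair 3 and cKO pair 1 differed by 1 count against 0, within the 3 counts that a 0 allows. In the same pairs *Chga* went from 0 CPM in the PLET1+ library to only 0.133 and 0.105 CPM in the PLET1- one. *Pth* went from 0.213 and 0.275 CPM to 1.06 and 0.989 CPM there, so these pairs add little to the pattern. *Casr* was higher in PLET1- cells in 1 pair of 6 and *Gata3* in 3 of 6. In pairs of control number 1 and cKO numbers 2 and 3, *Pth* went from at most 0.19 CPM in the PLET1+ library to at least 202 CPM in the PLET1- one. In control pair 2 it was high in both. In control pair 3 and cKO pair 1 it stayed at or under 1.06 CPM in both. The reported edgeR fit did not pair these libraries by number. In it the log2 fold change of PLET1+ against PLET1- cells was -2.61 for *Pth* (standard error 2.48) and -3.55 for *Chga* (2.13) in controls. The values in controls rest on the second PLET1+ control, without which they were -11.72 for *Pth*, -10.73 for *Chga* and, for *Gcm2*, -13.17 in place of -1.59. In the cKO it was -10.39 for *Pth* (3.70) and -11.0 for *Chga* (3.30). None of the 5 genes had an adjusted p under 1 in either test. Of all genes 0% were called in either, with 550 in controls and 442 in cKO under 0.05 unadjusted, and DESeq2 called 153 and 152 and limma-voom 1 and 2. Of the 5 genes, 2 were under 0.05 unadjusted in the cKO and 0 in controls, and DESeq2 called *Chga* in the cKO. With the replicate number as a block, edgeR called none of the 5 in either.

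Some of these calls changed with the filter on low counts. Of 34811 genes tested with no filter, edgeR called 519 by age in controls and 10 in the E14.5 PLET1+ cKO. It called 43 for the mean cKO effect, 23 by PLET1 in the cKO, and 6 and 24 for the cKO effect by PLET1 and by age. With no filter, edgeR called *Pth* and *Chga* lower at E14.5 than at E12.5 in controls (adjusted p = 6.33e-06 and 2.80e-07) and in the cKO (2.71e-18 and 1.57e-13). It also called both lower in the E14.5 PLET1+ cKO than in its controls (adjusted p = 5.34e-08 and 0.00953) and lower in PLET1+ than in PLET1- cells of the cKO (6.79e-14 and 1.22e-11). *Pth* was called lower in the mean cKO effect (log2 fold change -3.57, adjusted p = 0.00142). The difference of the cKO effect between PLET1+ and PLET1- cells was then called for *Pth* (-7.69, adjusted p = 1.18e-05) and *Chga* (-7.55, adjusted p = 0.00457), and that between E12.5 and E14.5 for *Pth* (7.33, adjusted p = 0.000532). The E14.5 PLET1+ controls in these cKO effects include the second library, without which, with the filter, the value between ages was -1.20 for *Pth*. The fold changes were close to those with the filter and the standard errors smaller, at 1.15 in place of 3.85 for *Pth* in the PLET1+ cKO, and the cause of this change was not tested.

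**Figure D4:**
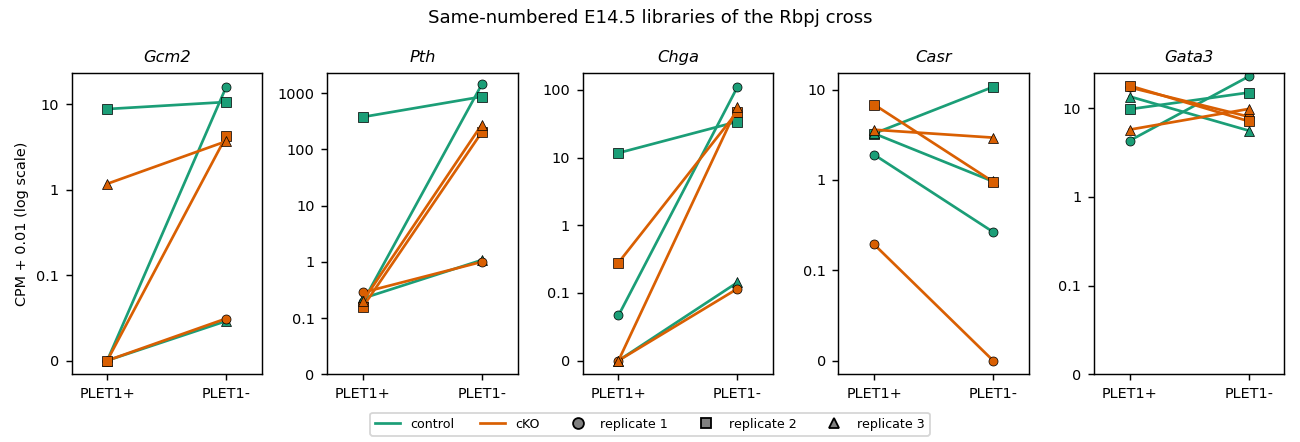
Level of each gene in the E14.5 PLET1+ and PLET1- libraries of the same number, as CPM + 0.01 on a log scale, with a line for each of the 3 control and 3 cKO numbers. For *Gcm2*, *Pth* and *Chga* all 6 lines rise towards PLET1- cells, for *Casr* 1 and for *Gata3* 3. The *Gcm2* lines of control 3 and cKO 1 rise by 1 count against 0, and their *Pth* and *Chga* lines stay at or under 1.06 CPM.

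The NICD libraries are described against PLET1+ controls without a test, because the genes were selected on these values. Over the whole table edgeR called 0.684% of genes against the E14.5 and 2.81% against the E12.5 controls, and nothing is read from these shares for the 5 genes. Mitochondrial genes took 9.60 to 12.8% of the counts in the 5 NICD libraries, 4.21 to 9.54% in the 12 other E14.5 libraries and 6.80 to 14.6% at E12.5, so NICD and the other E14.5 libraries did not overlap in it, and its part in the levels was not tested. Against E12.5 controls all 5 genes were lower by mean. For 4 of them, *Gcm2*, *Pth*, *Chga* and *Gata3*, every NICD library lay under every E12.5 control, as in 4.91% of all genes, while the *Casr* libraries overlapped. For *Gcm2*, *Pth* and *Chga* every NICD library also lay under every E12.5 cKO library, as in 4.37% of all genes. Against E14.5 PLET1+ controls, the mean was 0.00915 against 2.93 CPM for *Gcm2* and 2.02 against 126 CPM for *Pth*, and both differences rest on the second control. The 2 other PLET1+ controls, at 0 CPM for *Gcm2* and 0.182 and 0.213 CPM for *Pth*, were level with the NICD libraries for *Gcm2*, and for *Pth* lay between the second NICD library and the other 4. For *Casr* the means were 1.9 ± 2.04 CPM (SD, n = 5) in NICD and 2.8 ± 0.785 CPM (SD, n = 3) in the controls, and for *Gata3* 11.4 ± 5.12 and 9.17 ± 4.63 CPM. In the second NICD library, the 1 with *Pth* at 1 CPM or more, *Gata3* and *Casr* were at their lowest of the 5.

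Other genes of the pouch and of calcium handling were read from lists of 18 and 16 genes. Of 18 pouch and parathyroid regulators, 12 passed the filter, and *Sox3* had no count in any library. *Pax1*, at 148 to 350 CPM, and *Eya1*, at 29.9 to 193 CPM, which act upstream in the pouch, were the most abundant. edgeR called none of the 12 in any tested comparison. From E12.5 to E14.5 PLET1+ controls 1 of them was fitted higher and 11 lower, with a median log2 fold change of -0.85 against 0.194 over all genes tested. Of these, 5 were under 0.05 unadjusted, against 12.9% of all genes. DESeq2 called *Bmp4* and *Six4* and limma-voom *Six4*. In the other comparisons DESeq2 called at most 2, by age in the cKO, among them *Six4*, and limma-voom none. In the cKO against control the median was -0.18 at E12.5, -0.05 in E14.5 PLET1+ and -0.03 in E14.5 PLET1- cells, against 0, -0.022 and 0.02 over all genes.

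Of 16 genes of hormone processing and calcium handling, 14 were tested and edgeR called none. *Cdkn1b*, a cell cycle inhibitor, at 26.7 to 486 CPM, and *Ap2s1*, an adaptor subunit that acts in calcium sensing, at 57.7 to 191 CPM, were the most abundant. From E12.5 to E14.5 controls, 5 were fitted higher and 9 lower, with a median of -0.3. Unadjusted, 3 were under 0.05, against 12.9% of all genes. DESeq2 called *Cyp27b1*, *Gna11* and *Vdr* there and limma-voom *Vdr*, and DESeq2 called at most 2 of them in any other comparison. *Kl*, which encodes the co-receptor for FGF23 and was picked out after its values were seen, was at 9.32 and 3.94 CPM in the PLET1- controls 1 and 2 and at 1.72 and 1.61 CPM in PLET1- cKO 2 and 3, the 4 PLET1- libraries with *Pth* at 202 CPM or more. In all other E14.5 libraries it was at most at 0.168 CPM, including the second PLET1+ control, which had *Pth* at 376 CPM. At E12.5, where every library held *Pth* at 624 CPM or more, *Kl* did not follow it. It was at 0.083, 0 and 1.35 CPM in the controls and at 0.65, 0 and 7.4 CPM in the cKO. The cKO library with 7.4 CPM had the lowest *Pth* of that age.

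Of 10 further genes of secretory granules and neuroendocrine cells, 7 were tested and *Chgb* had no count in any library. *Pcsk2*, a prohormone convertase, was at 16.3 CPM or less throughout. *Pcsk2* was found in the third PLET1- control, at 12.9 CPM, and in the first PLET1- cKO, at 10.9 CPM, where *Chga* was at 0.133 and 0.105 CPM. In the second PLET1+ control, which had *Chga*, it was at 0.436 CPM. edgeR called none of the 7 in any tested comparison. From E12.5 to E14.5 controls 1 was under 0.05 unadjusted, against 12.9% of all genes. DESeq2 called *Pcsk2* and *Scg2* there and limma-voom *Pcsk2*, and DESeq2 called at most 1 in any other comparison.

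**Figure D5:**
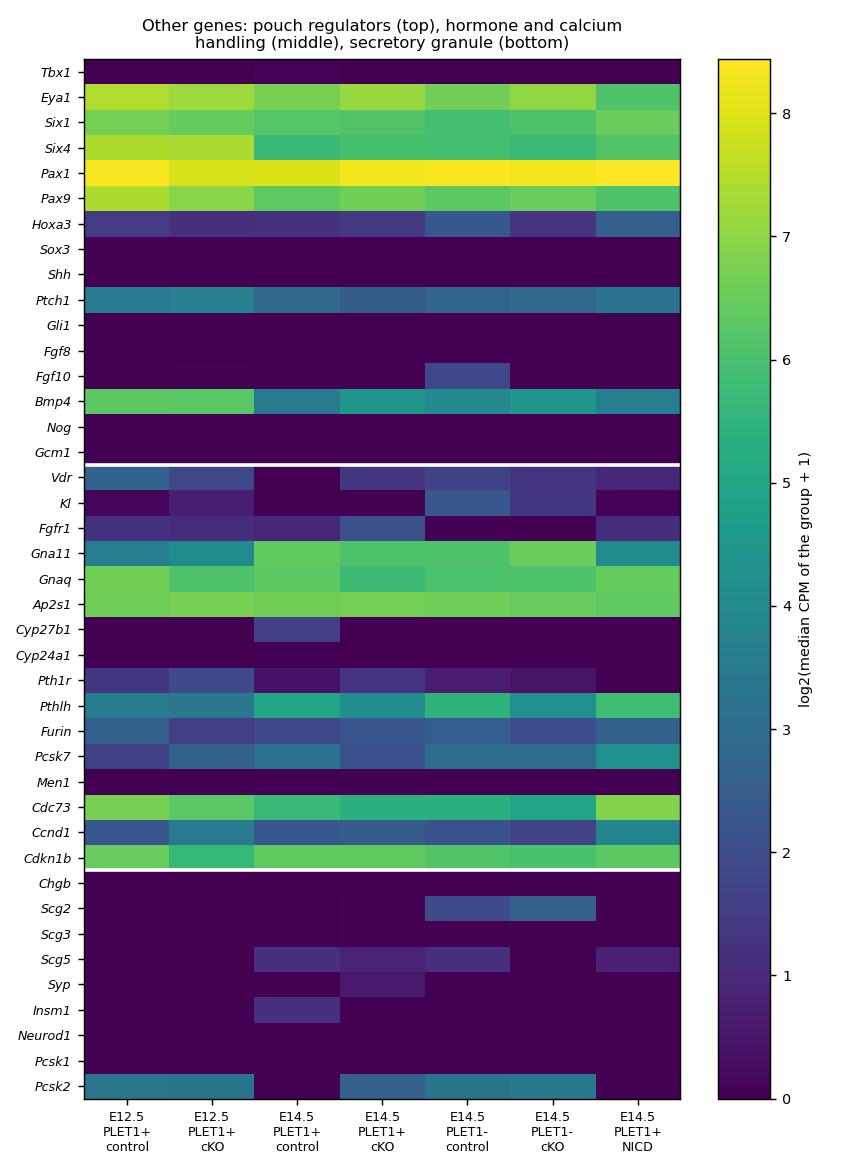
Median level of other listed genes in each group, as log2(median CPM + 1), for the pouch regulators, the genes of hormone processing and calcium handling and the granule genes. *Pax1*, *Eya1* and *Ap2s1* are high in all 7 groups and most granule genes are near 0.

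Markers of other cell types were read beside these genes. Of 12 T lineage genes, summed levels were 13 to 88.4 CPM, highest in the third NICD library. The third E12.5 control, which had the highest level of *Gata3*, also a T cell gene, had a sum of 20.9 CPM. Of the 12, 7 reached 1 CPM in some library, led by *Lck*, at up to 58.8 CPM and at 1 CPM or more in 20 libraries, and *Bcl11b*, at 2.87 to 29.6 CPM in all 23. The other 5, *Cd3d*, *Cd3e*, *Cd2*, *Il7r* and *Rag1*, were at most at 0.354 CPM. The 7 thyroid and C cell genes summed to at most 21 CPM, in the third E12.5 control, with *Foxe1* at 0 in all. Of 8 mesenchyme genes, led by *Dcn* and *Lum*, the sum was 436, 1147 and 1.77 CPM in the PLET1- controls and 530, 52.8 and 20.5 CPM in the PLET1- cKO, against 1.1 to 43.4 CPM in E14.5 PLET1+ libraries of the *Rbpj* cross and 23.1 to 356 CPM in NICD. In the same order *Pth* was at 1431, 864 and 1.06 CPM in the PLET1- controls. It was at 0.989, 202 and 276 CPM in the PLET1- cKO. In the controls both were lowest in the third, but the second had the highest mesenchyme sum and the first the highest *Pth*. In the cKO the first had the highest mesenchyme sum and the lowest *Pth*. The PLET1+ control with 376 CPM of *Pth* had 10.4 CPM of mesenchyme genes. The 4 endothelial genes summed to at most 20.5 CPM and the 4 red blood cell genes to at most 3.66 CPM. The part of any of these cells in the levels of the parathyroid genes was not tested. Of the TEC markers, edgeR called *Psmb11*, a cortical proteasome subunit, higher at E14.5 than at E12.5 in PLET1+ controls (log2 fold change 2.11, adjusted p = 0.0141) and cKO (2.66, adjusted p = 0.00397), and *Prss16*, a cortical protease, in the cKO (2.23, adjusted p = 0.00623).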

How the data were processed

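The authors trimmed the 75 bp paired reads with Trimmomatic 0.32, aligned them with STAR 2.5.1a to GRCm38 and assigned read pairs to GENCODE vM12 genes with featureCounts, and the deposited counts per gene, without normalization or regard to strand, were used as they are. Libraries were grouped by their labels, which also give replicate and batch. The 5 genes and the gene lists were chosen with earlier results of these data known.

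TMM factors and one edgeR quasi-likelihood fit of all 23 libraries (7 group means, 2 batch terms, filterByExpr) gave log2 fold changes, two-sided p-values and their Benjamini-Hochberg adjustment over 19140 genes per comparison. A standard error is the fold change divided by the square root of F. The fit was also run on simulated counts with a common mean per gene, apart from genes changed at random. That simulation did not model the split of *Gcm2*, *Pth* and *Chga* within groups, so nothing is read from it for these genes. Genes named are the 5 members, the listed genes called or else the 2 most abundant of each list, and the 3 genes most like each member. Genes named outside this rule are marked as such or were called by another tool, and some listed genes, counted in their lists, are not reported here.

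At E14.5, deviations from group means correlated at 0.319 to 0.631 in all 12 same-numbered pairs, against -0.558 to 0.428 in pairs of different numbers. The ranges overlapped, and the same-numbered pairs include control with cKO libraries, which are different embryos. For the counts of pairs the numbers were taken to pair these libraries, but the correlations do not show a shared embryo. The reported fit held no term for the numbers, which entered only the replicate block. The labels do not say that a pair shares an embryo, and where numbers mark no separate animal, p-values measure only the spread between these samples. Alternatives were DESeq2, limma-voom (the authors' test), RLE or housekeeping scaling, no or a stricter filter, no batch terms, a replicate block, no NICD libraries, and each library left out, with E14.5 against E12.5 in cKO libraries added after the data were seen. RefSeq promoter windows were searched for 4 motifs. The programs used were Python 3.11.15, DESeq2 1.42.0, limma 3.58.1 and edgeR 4.0.16, under R 4.3.3.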

Additional observations from a re-analysis of the deposited data

Results flagged for a closer look

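In the NICD group of 5 libraries, the second library lay far from the other 4 for *Pth*, at 10.1 CPM from 660 counts against 0 to 0.0252 CPM, a gap larger than Dixon's 95% limit for 5 values. The same library was the only one of the 5 with counts on *Gcm2*, at 0.0458 CPM, but these were 3 counts, the number that a count of 0 allows. Groups of 3 libraries were not examined for such gaps, and 4 genes with a range above 0 were examined in NICD. Dixon's limit assumes normally distributed values, whereas the counts of *Pth* and *Gcm2* were 0 or near 0 in the other 4 libraries. The genes were also selected on low values in NICD. The gaps are therefore a description and not a test, and no rate of chance flags can be given. In the tests of whether the cKO effect differed between populations, edgeR called none of the 5 genes after the filter on low counts, and with no filter it called *Pth* and *Chga* between PLET1+ and PLET1- cells and *Pth* between ages.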

How the results depend on the processing

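Of 791 fold changes of the 5 genes refitted under the alternatives, 744 kept their direction and their side of the threshold, 14 passed it where the reported fit did not, and 33 changed direction, none of these with an adjusted p under 0.05. In the order E12.5 cKO, E14.5 PLET1+ cKO, E14.5 PLET1- cKO, mean cKO effect, age in controls, PLET1 in controls, PLET1 in cKO, NICD against E14.5, NICD against E12.5, cKO effect by PLET1 and cKO effect by age, edgeR called 5, 0, 0, 0, 185, 0, 0, 131, 538, 0 and 0 genes. DESeq2 called 318, 100, 160, 202, 1281, 153, 152, 1215, 2262, 107 and 193, and no filter on low counts gave 52, 10, 15, 43, 519, 16, 23, 677, 1129, 6 and 24. limma-voom called 0 at E12.5, 448 by age, 1 and 2 by PLET1, and 998 and 1500 in NICD. Housekeeping scaling gave 0 at E12.5 and 413 in NICD against E14.5, no batch terms 0 at E12.5, and a fit without NICD libraries 1 for the mean cKO effect. The replicate block gave 2 at E12.5, 3 for the mean, 376 by age and 298 in NICD against E14.5. Leaving out each library gave 0 to 6 at E12.5, 0 to 2 for the mean, 93 to 143 by age, 34 to 171 and 300 to 562 in NICD, 0 to 3 for the cKO effect by age and 0 in the other comparisons.

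Of the 5 genes, none was called in the reported fit. Without the filter *Pth* and *Chga* (2) were called in E14.5 PLET1+ cKO, by age in controls and cKO, by PLET1 in the cKO and for the cKO effect by PLET1, and *Pth* (1) for the mean and the cKO effect by age. DESeq2 called 2 by age and 1 by PLET1 in the cKO, limma-voom 1 by age, and DESeq2 gave *Pth* no adjusted p. The cause of these changes was not tested.

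Among the values that changed direction, *Casr* became -0.52 with limma-voom and -1.38 with the replicate block in E14.5 PLET1+ cKO, 1.18 and 1.28 by PLET1 in controls, and 0.39 by age in the cKO libraries. *Chga* in E14.5 PLET1- cKO became -3.59 with limma-voom, -0.48 with no batch terms and -0.06 with the block. For the cKO effect by PLET1, limma-voom gave 0.87 for *Gcm2*, 1.33 for *Pth* and 1.31 for *Chga*, and the block 3.13 for *Gcm2*. Leaving out single libraries moved *Gcm2* between -1.5 and 0.53 at E12.5, between -10.13 and 6.75 in E14.5 PLET1+ cKO and between -4.14 and 1.12 for the mean. *Chga* moved between -9.51 and 2.0 in PLET1+ cKO, between -1.63 and 5.81 in PLET1- cKO and between -2.72 and 0.64 for the mean. *Casr* moved between -1.47 and 0.92 in PLET1+ cKO, between -3.11 and 1.14 in PLET1- cKO and between -1.3 and 2.73 by PLET1 in controls. *Gata3* moved between -0.03 and 1.12 in PLET1+ cKO and *Pth* between -3.09 and 2.54 in PLET1- cKO. For the cKO effect by PLET1 the ranges were -11.37 to 9.13 for *Gcm2*, -10.68 to 2.03 for *Pth*, -0.76 to 3.42 for *Casr* and -11.59 to 1.35 for *Chga*. For the cKO effect by age they were -7.73 to 9.14 for *Gcm2*, -1.2 to 8.46 for *Pth* and -2.72 to 8.78 for *Chga*.

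At E12.5 same-numbered libraries correlated at -0.113 to 0.089, so their numbers do not pair them and the block there shares only a number. The replicate block changed no call of the 5 genes. Under RLE, housekeeping or no scaling factors, 1 of 105 group means moved by more than its SD (*Chga* in E12.5 cKO, 63.7 CPM with housekeeping scaling). The limits are 3 libraries a group, 100 cells a library, ages and NICD in batches of their own, and levels of *Gcm2*, *Pth* and *Chga* that split within groups.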
